A study of Homo sapiens with 16 samples.

Results

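The genes described here encode the proteins of the mitochondrial ribosome. They were chosen by symbol alone, as every gene named MRPL or MRPS followed by a number and at most a letter A, B or C, which gave 78 of the 57500 genes in the count table. Of these, 49 are named MRPL and 29 are named MRPS, and they lie on 21 chromosomes. Total RNA was sequenced from HEK293T, a line derived from human embryonic kidney cells, in 16 libraries that form 4 groups of 4. The E92K group carried a lentivector for histone H2A with a glutamate-to-lysine change in the acidic patch of the nucleosome and received DMSO. The JQ1 group carried the lentivector for unchanged H2A and received 1 µM JQ1, a BET bromodomain inhibitor, for 3 h. The pinometostat group carried the same H2A vector and received 2.5 µM pinometostat, an inhibitor of the histone methyltransferase DOT1L, for 24 h. The H2A DMSO group carried the H2A vector, received no compound and serves all 3 comparisons. The labels state no removal of the cells' own H2A genes, no clone and no time for DMSO, so compound, time and handling cannot be told apart. Replicates are numbered in the labels with no word on separate cultures, and the p-values then cover the spread of these samples alone, part of which may be technical.

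Mitochondria keep a small genome whose messenger RNAs encode core subunits of the respiratory chain and the ATP synthase, and a ribosome of bacterial descent translates them inside the organelle. Its RNAs come from the mitochondrial genome, while all of its proteins are encoded in the nucleus, made in the cytosol and imported. Part of these proteins descend from the bacterial ribosome, and others were added in the mitochondrial lineage, so that the mammalian particle is richer in protein than its bacterial relative. By known structure, 51 of the 78 genes encode proteins of the large subunit, which joins amino acids, among them MRPS18A and MRPS30 despite their names. Of the large subunit genes, 30 have a bacterial counterpart and 21 have none. A further 26 genes encode proteins of the small subunit, which decodes the messenger, 16 with and 10 without a bacterial counterpart. MRPS36 belongs to the oxoglutarate dehydrogenase complex and not to the ribosome.

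Promoters of these genes are known for sites of the ETS factor GABP and of YY1, and the core letters of those sites were looked for where RefSeq lists a start (GRCh38.p14, 250 bases before to 50 after the start). A window was found for 69 of the 78 genes. The ETS core CCGGAAG, read on both strands, was in 29 of the 69 windows (42%), against 17.6% of 11420 windows of other tested genes and 10.7% of all 27305 windows. The YY1 core AAGATGGCG was in 13 windows (18.8%), against 3.55% of other tested genes and 1.85% of all windows. ETS matches had a median position of -22 relative to the start, with 27 of 39 matches in the last 100 bases before it, and 10 of 14 YY1 matches lay at or after the start, at a median position of 8.5. At least 1 of the 2 cores was in 38 windows and both were in 4.

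The other 6 motifs were near or below their share in the other tested genes. The NRF1 core CGCATGCG was in 3 windows (4.35% against 3.76% of other tested genes and 2.19% of all windows), and the E-box CACGTG, the site of MYC and its relatives, in 6 (8.7% against 10% and 7.43%). The TATA box TATAAA was in 2.9% of the windows, the CCAAT box CCAAT in 29% and the GC box GGGCGG in 60.9%, against 5.71%, 36.4% and 70.1% of other tested genes and 12%, 35.7% and 44.6% of all windows. The cyclic AMP response element TGACGTCA was in 0 of the 69 windows, against 3.21% and 1.98%. All 8 motifs were searched on both strands and independently, so that a base could count in more than 1 motif, and a match is a run of letters and not a shown binding site.

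**Figure D1:**
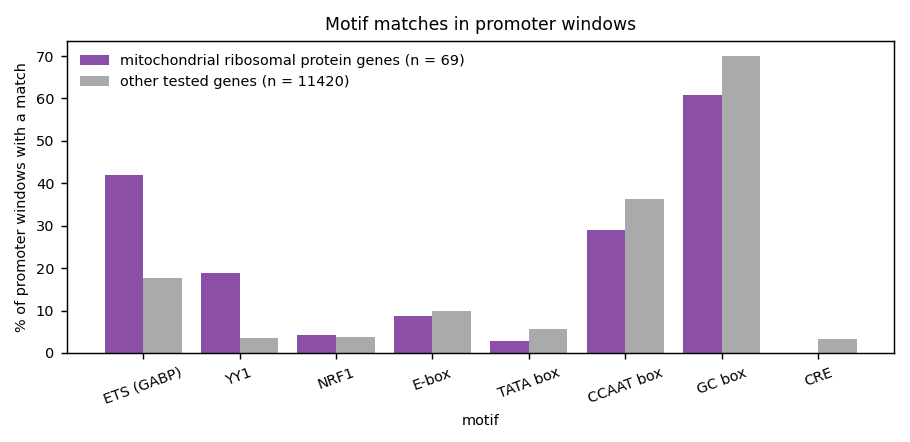
Share of promoter windows (percent, vertical axis) that hold each of 8 motifs (horizontal axis), in purple for 69 mitochondrial ribosomal protein genes and in grey for 11420 other tested genes. The ETS core stood at 42% against 17.6% and the YY1 core at 18.8% against 3.55%, while the other 6 motifs were near or below the level of the other genes.

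The 150 bases before the start are shown for 4 genes whose transcripts are described in detail below, to set promoters with and without an ETS core beside each other, with the core in capitals. MRPL33 (chr2:27771569-27771718, plus strand) and MRPL58 (chr17:75012520-75012669, plus strand) both carry it 8 bases before the start, and MRPL58 has a further match 193 bases before it, outside the stretch shown. They are 2 of the 3 genes higher with pinometostat, and the other one, MRPL42, has no ETS match in its window and a YY1 match at position 8 after the start. MRPL46 (chr15:88467389-88467538, minus strand) and MRPL41 (chr9:137551729-137551878, plus strand) have no ETS match in their windows, and MRPL46 has a YY1 match at position 8, past the stretch shown. These genes were picked with their calls known, and nothing is read from them about cores and calls. In GENCODE release 29 the MRPL46 start, at 88467419, lies 34 bases from that of MRPS11, at 88467453, which is read the other way. The stretches shown use RefSeq starts, which differ from the gene starts in the spans given below for MRPL33, MRPL46 and MRPL41. The MRPL46 stretch holds the MRPS11 start. The MRPL41 stretch lies inside the gene span given below.
MRPL33: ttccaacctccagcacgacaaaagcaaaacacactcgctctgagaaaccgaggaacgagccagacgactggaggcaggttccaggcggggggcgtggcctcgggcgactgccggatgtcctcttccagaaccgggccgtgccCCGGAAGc
MRPL58: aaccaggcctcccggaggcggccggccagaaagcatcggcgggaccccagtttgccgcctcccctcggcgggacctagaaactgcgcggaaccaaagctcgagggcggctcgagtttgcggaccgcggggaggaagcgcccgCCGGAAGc
MRPL46: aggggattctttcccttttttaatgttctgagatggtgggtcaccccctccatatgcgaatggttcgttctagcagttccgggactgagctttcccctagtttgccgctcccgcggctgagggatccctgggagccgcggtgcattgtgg
MRPL41: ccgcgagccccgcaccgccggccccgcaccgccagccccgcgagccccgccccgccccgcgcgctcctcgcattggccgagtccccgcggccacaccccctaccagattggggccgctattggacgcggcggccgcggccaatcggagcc

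Depth ran from 17779692 to 27599686 counts per library, and all 78 genes passed the filter on low counts, with 127 to 8822 counts per gene and library (median 1823.5). HEXIM1, a common marker of BET inhibition, stood at 94.8 to 100.3 TPM (transcript counts scaled by length and depth) in the JQ1 libraries against 25.4 to 37.6 in H2A DMSO. Of the markers of the line, PAX2, LHX1 and WT1 were detected at medians of 2.72, 4.00 and 3.29 TPM over the 16 libraries, while the blood, endothelial and liver genes PTPRC, PECAM1 and ALB stayed at or below 0.152 TPM. In the JQ1 test described below all 3 line markers were lower (10.4% of all tested genes were). With H2A DMSO replicate 1 left out 1 was lower. The share of counts from mitochondrial DNA set a pair of libraries apart. It was 16.5% in JQ1 replicate 1 (3.04% to 3.69% in replicates 2 to 4 of that group) and 7.45% in E92K replicate 4, against 3.66% to 4.02% in H2A DMSO. All 4 pinometostat libraries, at 4.43% to 5.04%, also lay above every H2A DMSO library, as did E92K replicates 1 (4.19%) and 3 (4.95%). In bulk RNA, fewer cells of a kind and less RNA per cell cannot be told apart. The strand setting of the counting is not given in the sources used here, 37 of the 78 genes overlap another protein-coding gene and 34 have processed pseudogenes named for them, so reads of those genes may be split or shared.

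In H2A DMSO cells the mitochondrial ribosomal protein genes had high and unequal transcript levels. Their median was 101 TPM, against 9.92 TPM for all 17306 tested genes, which is the 91.6th percentile, and 0 of the 78 lay below the median tested gene. Large subunit genes had a median of 108 TPM and small subunit genes of 80.1 TPM. The highest levels were those of MRPS34 (chromosome 16, 1771890 to 1773155, GRCh38), a small subunit protein with no bacterial counterpart, at 664 ± 18.6 TPM (SD, n = 4), MRPL14 (512 ± 43.8 TPM), whose bacterial counterpart lies at the interface of the subunits, and MRPL51 (388 ± 33.1 TPM). By TPM the lowest were MRPL53 at 17.3 ± 2.67 TPM, MRPL46 at 17.9 ± 1.75 TPM and MRPS18C at 24.0 ± 3.11 TPM. Divided by the length of coding transcripts instead of summed exons, MRPL53 was again the lowest. On that scale MRPL46 had rank 63 and MRPS18C rank 50 of the 78. On the same strand CCDC142 overlaps MRPL53 and AC013489.1 overlaps MRPL46, so reads of both genes may be split or shared. The proteins stand side by side in a single particle, yet the highest and the lowest transcript level were 38.4-fold apart.

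Levels of neighbours in this order mostly could not be separated: in 73 of 77 neighbouring pairs the 4 libraries of one gene overlapped those of the next. The order also depends on the length by which counts are divided, since TPM in the files use the summed exons of a gene, which are more than 2 times the median coding transcript for 36 of the 78. MRPL42 is an example, with 16393 exonic bases and 29.1 ± 1.47 TPM (SD, n = 4). Divided by the length of coding transcripts instead, the highest and lowest gene were 36.5-fold apart, and the orders by the 2 lengths had a Spearman rho of 0.62 over the 78 genes. Across the 4 H2A DMSO libraries, counts scaled to depth by TMM (CPM, the scale of all levels from here on) had a median coefficient of variation of 12.1% for these genes and 12.6% for all tested genes. MRPL37 varied least, at 0.184%, and MRPL1 most, at 24.0%. In TPM MRPL37 stood at 399, 391, 365 and 357 in H2A DMSO replicates 1 to 4, so its small spread depends on the scale.

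**Figure D2:**
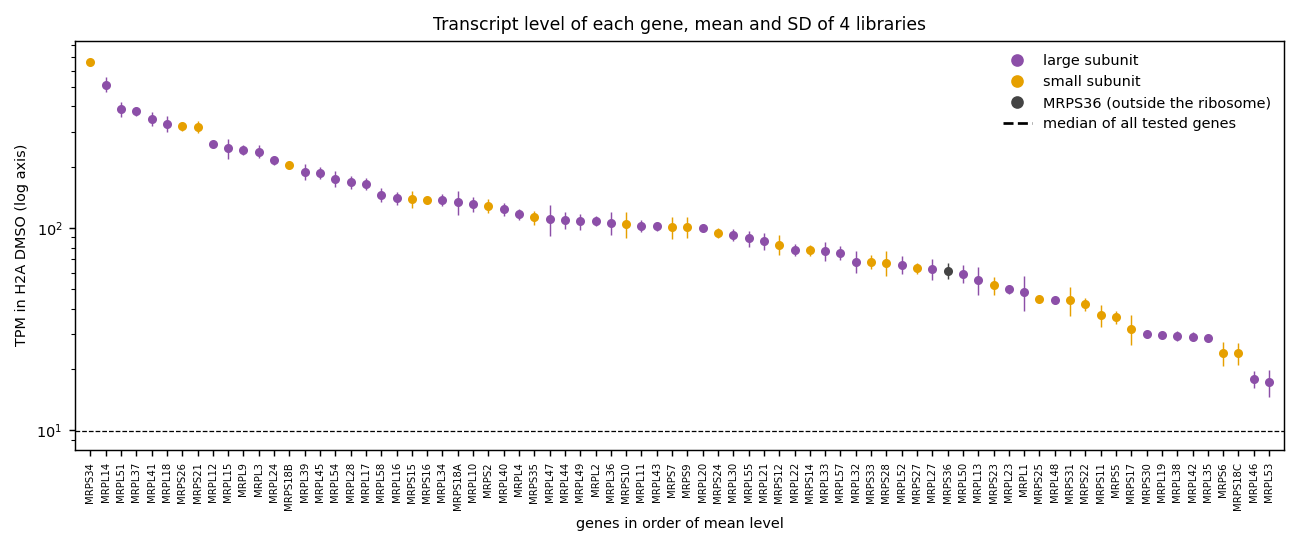
Mean TPM in H2A DMSO (vertical axis, log scale; bars are the SD of 4 libraries) of each of the 78 genes in order of level, coloured by subunit. The genes span 17.3 to 664 TPM, and all lie above the dashed line, the median of all tested genes at 9.92 TPM.

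The paralogs of the bacterial protein S18 differed in TPM. MRPS18A, in the large subunit, stood at 135 ± 18.2 TPM, MRPS18B, in the small subunit, at 205 ± 7.95 TPM, and MRPS18C, also in the small subunit, at 24.0 ± 3.11 TPM (SD, n = 4 each, H2A DMSO), with no overlap between the 3 across the H2A DMSO libraries. Per kilobase of coding transcript, mean CPM before TMM were 60.4, 81.7 and 56.9 for MRPS18A, MRPS18B and MRPS18C (ranks 48, 32 and 50). The gap between MRPS18A and MRPS18C thus depends on the length used. MRPS30, a large subunit protein, had 29.8 ± 0.924 TPM. MRPS36 of the oxoglutarate dehydrogenase complex had 61.6 ± 5.68 TPM, inside the range of the ribosomal genes. The stalk protein MRPL12, which also binds the mitochondrial RNA polymerase, had 261 ± 9.61 TPM, and the peptidyl-tRNA hydrolase MRPL58, which rescues stalled ribosomes, had 146 ± 11.5 TPM. None of MRPS18A, MRPS18B, MRPS18C, MRPS30, MRPS36 and MRPL12 passed the test in any of the 3 comparisons.

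The genes deviated together from library to library within a group. The median log2 deviation of the 78 genes from their H2A DMSO mean was -0.20, -0.08, 0.08 and 0.17 in H2A DMSO replicates 1 to 4, with 6, 15, 67 and 71 genes above the mean. It was 0.24, 0.13, -0.09 and 0.34 in E92K replicates 1 to 4, 0.33, 0.02, 0.01 and -0.06 in JQ1 replicates 1 to 4, and 0.17, 0.12, 0.32 and 0.16 in pinometostat replicates 1 to 4. The median over all tested genes stayed between -0.03 and 0.05 in every library. All 4 pinometostat libraries lay above the H2A DMSO mean, and 3 of the 4 lay below the highest H2A DMSO library.

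Large and small subunit genes moved in step in most libraries, with summed large subunit CPM 1.92 to 2.09 times the small subunit sum in 15 of the 16. In JQ1 replicate 1 the ratio was 2.26, with median deviations of 0.39 for the large and 0.09 for the small subunit. The same library had the highest summed CPM of the 78 genes (8995, against 5998 to 8314 in the other 15) and, in TPM, the lowest sums of both subunits (5350 TPM large and 2121 TPM small), so its place in the order depends on the scale. The genes are also short, with a median of 2501.5 exonic bases against 4341.5 for all tested genes. Across all tested genes the log2 fold change fell with exonic length at a Spearman rho of -0.20 with E92K and -0.15 with pinometostat, and had a rho of 0.01 with JQ1. Over the 78 genes alone the rho was -0.09 with E92K, -0.04 with pinometostat and -0.20 with JQ1. Genes are not independent replicates in these values. The part of gene length and mitochondrial share in the results below was not tested.

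**Figure D3:**
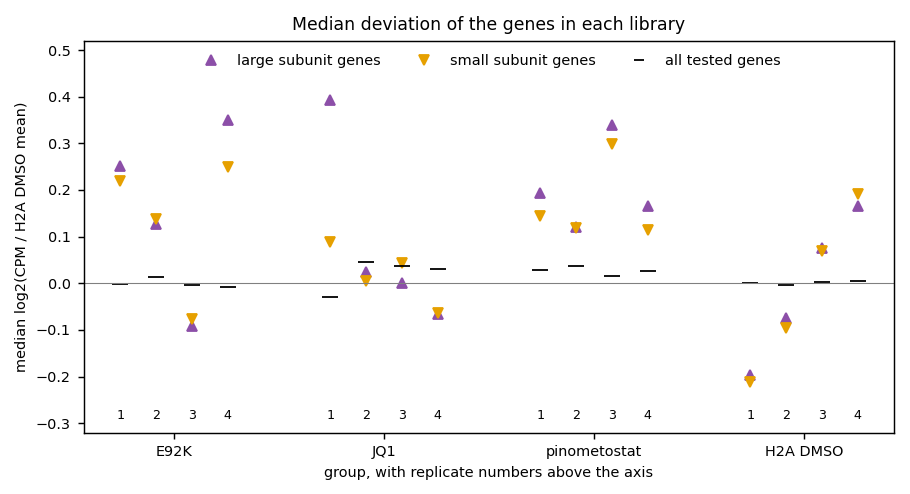
Median log2 ratio of CPM to the H2A DMSO mean (vertical axis) in each of the 16 libraries (replicates 1 to 4 of each group along the horizontal axis), as triangles for the 51 large and the 26 small subunit genes and as bars for all tested genes. The H2A DMSO libraries themselves lie on both sides of 0, and JQ1 replicate 1 has the widest gap between the subunits.

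The E92K comparison asked which transcripts differ when H2A with the acidic patch change is present. No mitochondrial ribosomal protein gene passed the edgeR quasi-likelihood test at a Benjamini-Hochberg adjusted p below 0.05, and 0 of all 17306 tested genes did (0%). The smallest adjusted p among the 78 was 0.656, while 4 of them had an unadjusted p below 0.05 (MRPL1, MRPL4, MRPL42 and MRPS17), against 7.49% of all tested genes. DESeq2 called 4 genes over the whole table and 0 of the 78. The 78 genes had a median log2 fold change of 0.17 (all tested genes 0.00), with 67 of 78 above 0 (85.9%, against 50.2% of all tested genes). Without E92K replicate 4 this median was 0.06 (all tested genes -0.02).

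MRPL1, a large subunit protein of the stalk that releases deacylated tRNA, had the largest value, 0.50 ± 0.20 (log2 fold change ± SE). It was measured at 44.3, 36.6, 34.8 and 49.7 CPM in E92K libraries, against 21.7, 27.7, 29.1 and 38.7 CPM in H2A DMSO libraries. The highest H2A DMSO library exceeded 2 of the 4 E92K libraries, so the groups overlapped. In 3 genes all E92K libraries lay below all H2A DMSO libraries, namely MRPL4, MRPL10 and MRPS2 (3.85%, against 3.18% of all tested genes), and in 0 genes all lay above (1.99%). MRPS2 was the tightest of them, with 91.2, 88.8, 90.4 and 91.2 CPM in E92K libraries against 103, 93.2, 95.5 and 99.5 CPM in H2A DMSO libraries, a log2 fold change of -0.11 ± 0.09. The 95% interval of the log2 fold change lay within -1 and 1 for all 78 genes and within a 1.5-fold change in either direction for 57 of them, and for the other 21 it reached past a 1.5-fold change.

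The JQ1 comparison asked which transcripts differ after 3 h of BET inhibition. Of the 78 genes 1 was higher (MRPL41) and 3 were lower (MRPL46, MRPS35 and MRPS2), which is 5.13% of them, while 17.6% of all tested genes passed the same test (7.16% higher and 10.4% lower). All groups share 1 estimate of the spread. The median log2 fold change of the 78 genes was 0.10, against 0.04 for all tested genes, with a range of -0.44 to 0.82. Of the 78, 50 lay above 0 (64.1%, against 54.9% of all tested genes). The sign of the median of the 78 genes turned with the scaling, at -0.10 with library size alone (all tested genes -0.14), and with a single library, at -0.05 without JQ1 replicate 1 (all tested genes 0.00). With limma on log2(TPM + 1), which changes the scale and the test together, it was -0.21 (all tested genes -0.21). By role, large subunit genes had a median of 0.11 with 1 of 51 higher and 1 lower, and small subunit genes of 0.07 with 2 of 26 lower.

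MRPL46 (ENSG00000259494, chromosome 15, 88459476 to 88467419), a large subunit protein with no bacterial counterpart, had 20.7, 29.3, 27.1 and 27.4 CPM in JQ1 libraries, against 30.5, 38.4, 38.1 and 35.1 CPM in H2A DMSO libraries. Every JQ1 library lay below every H2A DMSO library, although the highest of JQ1 and the lowest of H2A DMSO were close. The log2 fold change was -0.44 ± 0.14 (edgeR quasi-likelihood, Benjamini-Hochberg adjusted p = 0.0422). The span of MRPL46 overlaps AC013489.1 on the same strand, so its reads may be split or shared. The head-to-head partner MRPS11, whose GENCODE start is 34 bases away, is a small subunit protein. MRPS11 had 65.3, 67.8, 67.8 and 61.4 CPM in JQ1 libraries, against 53.0, 58.9, 69.0 and 78.4 CPM in H2A DMSO libraries. Its groups overlapped fully, with a log2 fold change of 0.02 ± 0.13, and the difference between the partners was not tested. The span of MRPS11 overlaps AC013489.1 on the opposite strand, so its counts may hold reads of that gene.

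MRPS35 (ENSG00000061794, chromosome 12, 27710773 to 27756295), a small subunit protein with no bacterial counterpart, had 44.2, 54.7, 52.4 and 60.0 CPM in JQ1 libraries, against 62.2, 65.4, 67.6 and 81.2 CPM in H2A DMSO libraries. The groups did not overlap, and replicate 1 was the lowest of JQ1. The log2 fold change was -0.39 ± 0.11 (edgeR quasi-likelihood, Benjamini-Hochberg adjusted p = 0.0267), and pseudogenes named for the gene leave its level uncertain. MRPS2 (ENSG00000122140, chromosome 9, 135499984 to 135504673), the counterpart of bacterial S2 in the small subunit, had 80.6, 80.7, 87.3 and 70.1 CPM in JQ1 libraries, against 103, 93.2, 95.5 and 99.5 CPM in H2A DMSO libraries. Again all JQ1 libraries were lower, by -0.30 ± 0.09 on the log2 scale (edgeR quasi-likelihood, Benjamini-Hochberg adjusted p = 0.0241). The span of MRPS2 overlaps C9orf116 on the opposite strand, so its counts may hold reads of that gene.

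MRPL41 (ENSG00000182154, chromosome 9, 137551199 to 137552555), a large subunit protein with no bacterial counterpart, had 444, 194, 179 and 144 CPM in JQ1 libraries, against 115, 138, 149 and 140.0 CPM in H2A DMSO libraries. Replicate 1 stood more than 2 times above the other JQ1 libraries, and replicate 4 lay inside the H2A DMSO range, so the groups overlapped. The log2 fold change was 0.82 ± 0.27 (edgeR quasi-likelihood, Benjamini-Hochberg adjusted p = 0.0438). Without JQ1 replicate 1 it was 0.32 and no longer passed (edgeR Benjamini-Hochberg adjusted p = 0.20; over all 17 other settings, DESeq2 and limma included, the adjusted p was 0.000385 to 0.20). In E92K libraries the gene was also highest in the library with the larger mitochondrial share, at 146, 139.9, 112 and 231 CPM in replicates 1 to 4.

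The JQ1 counts shifted with single libraries. Without JQ1 replicate 1, 0 genes were higher and 4 lower (MRPL15, MRPL50, MRPS2 and MRPS35), against 6.3% and 11.9% of all tested genes, and MRPL46 had an edgeR adjusted p of 0.0533 (0.0168 to 0.111 over all 17 other settings). Without both JQ1 replicate 1 and E92K replicate 4, 2 were higher (MRPL41 and MRPL38) and 5 lower (MRPL15, MRPL46, MRPL50, MRPS2 and MRPS35), against 10.2% and 13.8% of all tested genes. With H2A DMSO replicate 1, 2, 3 or 4 left out, 0 were higher and 3, 2, 1 or 0 lower; with JQ1 replicate 2, 3 or 4 left out, 1, 1 or 2 were higher and 3, 1 or 1 lower. Over all tested genes, 734 to 1456 were higher and 1461 to 1644 lower in these 7 fits. In the 6 genes MRPL15, MRPL44, MRPL46, MRPS2, MRPS30 and MRPS35 all JQ1 libraries lay below all H2A DMSO libraries (7.69%, against 12.2% of all tested genes), and in 0 genes all lay above (8.26%). MRPS30 had 51.6 ± 1.19 CPM in JQ1 libraries and 57.1 ± 2.84 CPM in H2A DMSO libraries (SD, n = 4 each), and a log2 fold change of -0.15 ± 0.08 that did not pass the edgeR test (Benjamini-Hochberg adjusted p = 0.257). Over 17 other settings MRPS35 passed in 12, MRPS2 in 11, MRPL46 in 9 and MRPL41 in 7. The 95% interval lay within -1 and 1 for 75 of the 78 genes (not for MRPL23, MRPL41 and MRPL55) and within a 1.5-fold change for 53.

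The pinometostat comparison asked which transcripts differ after 24 h of DOT1L inhibition. Of the 78 genes 3 were higher (MRPL33, MRPL58 and MRPL42) and 2 were lower (MRPL4 and MRPS2), which is 6.41% of them, against 8.2% of all tested genes (3.62% higher and 4.58% lower). The median log2 fold change was 0.18, against 0.03 for all tested genes, with 64 of 78 above 0 (82.1%, against 53.1% of all tested genes). The mitochondrial share was higher in all pinometostat libraries than in all H2A DMSO libraries, as given above. On TPM the median was 0.049 for the 78 genes and -0.09 for all tested genes. Large subunit genes had a median of 0.21 and small subunit genes of 0.16.

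MRPL33 (ENSG00000243147, chromosome 2, 27771717 to 27988087), the counterpart of bacterial L33, had 47.4, 62.0, 61.3 and 57.2 CPM in pinometostat libraries, against 30.6, 33.3, 42.9 and 40.1 CPM in H2A DMSO libraries. All pinometostat libraries were higher, and the lowest of them was the nearest to H2A DMSO. The log2 fold change was 0.63 ± 0.16, the largest rise of the 78 (edgeR quasi-likelihood, Benjamini-Hochberg adjusted p = 0.022). Its span in the files overlaps RBKS on the opposite and BABAM2 on the same strand, so its counts may hold reads of those genes.

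MRPL58 (ENSG00000167862, chromosome 17, 75012670 to 75021261), the peptidyl-tRNA hydrolase, had 76.8, 63.9, 72.9 and 66.4 CPM in pinometostat libraries, against 43.2, 47.2, 52.1 and 58.3 CPM in H2A DMSO libraries. The groups did not overlap, and the log2 fold change was 0.48 ± 0.13 (edgeR quasi-likelihood, Benjamini-Hochberg adjusted p = 0.0327). MRPL42 (ENSG00000198015, chromosome 12, 93467488 to 93516213), a large subunit protein with no bacterial counterpart, had 172, 199, 208 and 188 CPM in pinometostat libraries, against 129, 144, 159 and 157 CPM in H2A DMSO libraries. Here too all pinometostat libraries were higher, by 0.38 ± 0.11 on the log2 scale (edgeR quasi-likelihood, Benjamini-Hochberg adjusted p = 0.0417), and pseudogenes named for MRPL42 leave its level uncertain.

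MRPL4 (ENSG00000105364, chromosome 19, 10251901 to 10260045), the counterpart of bacterial L4 at the exit tunnel of the large subunit, had 109, 102, 117 and 111 CPM in pinometostat libraries, against 143, 152, 150.1 and 142 CPM in H2A DMSO libraries. The gap between the groups was wider than the range within either. The log2 fold change was -0.42 ± 0.09, the largest fall of the 78 and the smallest adjusted p among them (edgeR quasi-likelihood, Benjamini-Hochberg adjusted p = 0.0136). MRPS2 had 77.6, 76.1, 80.4 and 83.8 CPM in pinometostat libraries, against the H2A DMSO values given above, and was lower in all of them, by -0.30 ± 0.09 on the log2 scale (edgeR quasi-likelihood, Benjamini-Hochberg adjusted p = 0.0405). MRPS2 thus passed the test both with JQ1 and with pinometostat, in comparisons that share their H2A DMSO libraries.

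**Figure D4:**
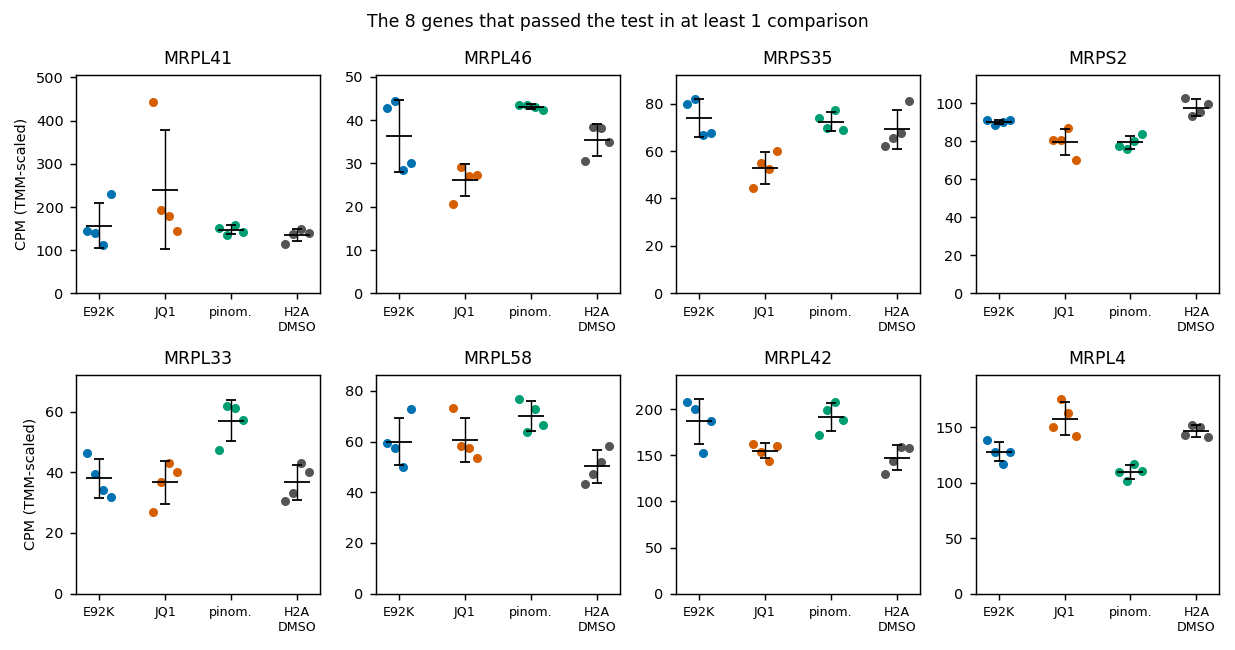
CPM (vertical axis, from 0) of the 8 genes that passed the test with JQ1 or pinometostat, 1 point per library in the 4 groups along the horizontal axis, with mean and SD (n = 4). MRPL4 and MRPS2 lie lower and MRPL33, MRPL58 and MRPL42 higher in all pinometostat libraries than in all H2A DMSO libraries, and MRPL41 has 1 JQ1 library at 444 CPM.

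More genes passed once the libraries that stand apart, neither of which belongs to this comparison, no longer entered the shared spread. Without JQ1 replicate 1 and E92K replicate 4, 17 of the 78 were higher and 4 lower with pinometostat (21.8% and 5.13%), against 12.9% and 14.5% of all tested genes. With the 8 libraries of the comparison alone, 16 were higher and 4 lower (20.5% and 5.13%), against 12.5% and 15.1%. All 5 genes called over 16 libraries were called in both of these fits, and the fold changes stayed close, as for MRPL33 (0.62 ± 0.11 without the 2 libraries). The additional genes without the 2 libraries were led by MRPL32 (0.48 ± 0.11), the counterpart of bacterial L32, MRPL13 (0.45 ± 0.13), MRPL36 (0.42 ± 0.12) and MRPL54 (0.38 ± 0.10) of the large subunit and MRPS33 (0.38 ± 0.11) and MRPS21 (0.37 ± 0.09) of the small subunit on the higher side. On the lower side they were MRPL2 (-0.30 ± 0.08), an RNA-binding protein near the catalytic centre in its bacterial form, and MRPL37 (-0.28 ± 0.07). On the opposite strand KLC4 overlaps MRPL2 and CYB5RL overlaps MRPL37, so the counts of both may hold reads of those genes.

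Of the 14 additional genes on the higher side, the groups did not overlap in 9 and overlapped in 5, MRPL54 among them. MRPL36, the counterpart of bacterial L36, is one of the 9. It had 63.1, 58.0, 67.3 and 58.7 CPM in pinometostat libraries, against 38.4, 40.8, 47.5 and 56.9 CPM in H2A DMSO libraries. H2A DMSO replicate 4 lay just below the lowest pinometostat library. MRPL37 had 241, 234, 255 and 254 CPM in pinometostat libraries, against 297, 297, 298 and 296 CPM in H2A DMSO libraries. On this scale its groups lay further apart than the range of either, and in TPM its H2A DMSO libraries spread more widely. In all, 16 genes had every pinometostat library above every H2A DMSO library (20.5%, against 12.7% of all tested genes) and 5 had every one below (MRPL2, MRPL4, MRPL37, MRPS2 and MRPS5; 6.41%, against 13.5%).

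The number of calls with pinometostat also turned on single libraries of the comparison. With H2A DMSO replicate 1, 2, 3 or 4 left out, 0, 0, 1 or 8 genes were higher, and with pinometostat replicate 1, 2, 3 or 4 left out, 1, 1, 0 or 0 were; 1 gene was lower each time. Over all tested genes, 79 to 679 were higher and 204 to 867 lower in these fits. The median log2 fold change lay between 0.11 and 0.26 in these fits. MRPL4 passed in 15 of 17 other settings, MRPL33 in 10, MRPL58 in 8, MRPS2 in 6 and MRPL42 in 5. The 95% interval lay within -1 and 1 for all 78 genes and within a 1.5-fold change for 47.

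**Figure D5:**
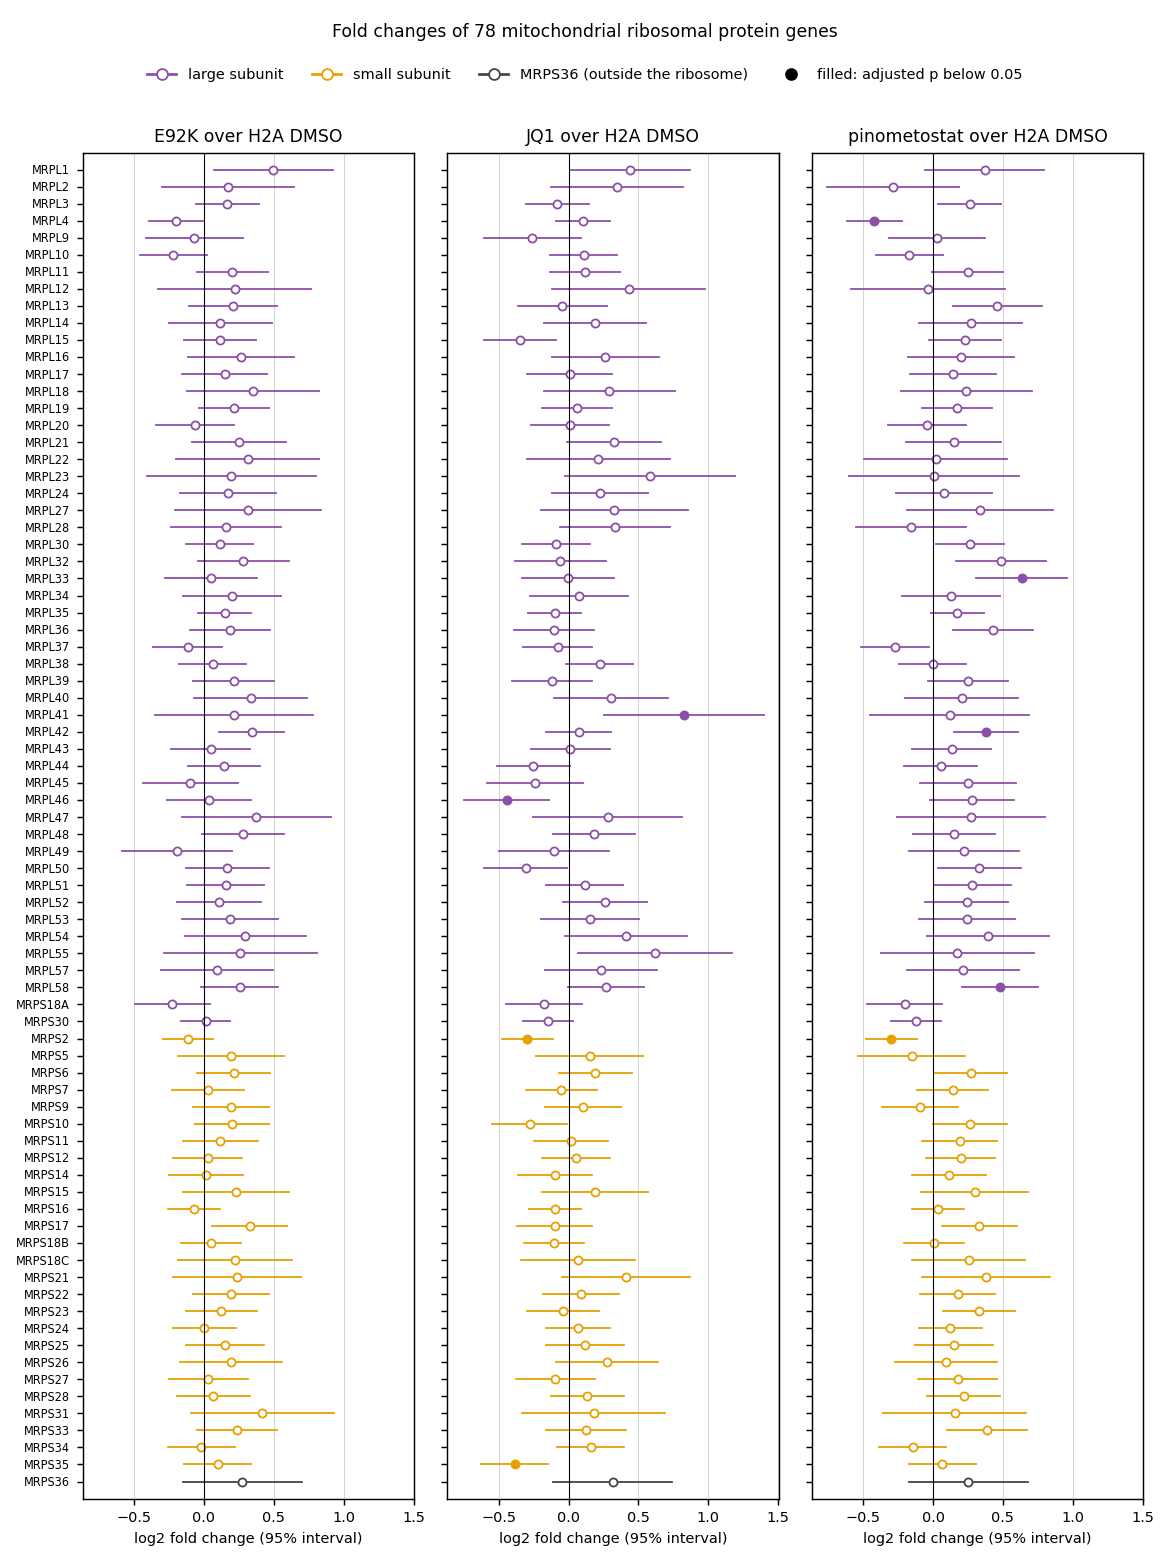
Log2 fold change against H2A DMSO (horizontal axis, lines are 95% intervals) of each of the 78 genes (vertical axis) with E92K, JQ1 and pinometostat, coloured by subunit and filled where the adjusted p was below 0.05. Filled points number 0 with E92K, 4 with JQ1 and 5 with pinometostat. To the right of 0 lie 67 points with E92K, 50 with JQ1 and 64 with pinometostat.

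Promoter letters and calls were set side by side as a description. With pinometostat, the 29 genes with an ETS core had a median log2 fold change of 0.24 and 2 called genes, and the 40 without one had 0.16 and 3 called genes. With JQ1 the genes with the core had a median of 0.15 and 0 called, and those without had 0.04 and 4 called. For the YY1 core the JQ1 median was -0.10 in the 13 genes with it (1 called) and 0.11 in the 56 without (3 called). With pinometostat these medians were 0.24 (1 called) and 0.18 (4 called). By GENCODE starts, a head-to-head protein-coding neighbour within 1000 bases was present for 17 of the 78 genes, at a median distance of 43 bases. This is 21.8%, against 9.34% of 13906 other tested coding genes. Of the 16 neighbours tested, 4 passed the JQ1 test (25%, against 17.6% of all tested genes): ZNF189 beside MRPL50 (-0.94), IGHMBP2 beside MRPL21 (-0.45), MRPL46 beside MRPS11 (-0.44) and PNPLA7 beside MRPL41 (1.03), while 0 passed with pinometostat (8.2% of all tested genes) or E92K (0%). MRPL46 is itself one of the 78 genes and is counted above.

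Subunits whose names fall outside the MRPL and MRPS series did not pass in any comparison. They are DAP3, AURKAIP1, CHCHD1 and PTCD3 of the small subunit and GADD45GIP1 of the large subunit. With pinometostat their log2 fold changes were -0.01 ± 0.11, -0.20 ± 0.16, 0.43 ± 0.16, 0.24 ± 0.08 and 0.24 ± 0.29 in that order, and with JQ1 0.18 ± 0.11, 0.40 ± 0.16, 0.11 ± 0.16, 0.14 ± 0.09 and 0.53 ± 0.29. With E92K they ranged from 0.04 for AURKAIP1 to 0.32 for GADD45GIP1. In the pinometostat fits with 8 libraries, or without the 2 libraries that stand apart, 2 of the 5 were higher and 1 was lower. Of all tested genes 12.5% or 12.9% were higher and 15.1% or 14.5% lower in these fits. DESeq2 called 1 higher with pinometostat, limma on TPM 1 lower, and 1 was higher with JQ1 without JQ1 replicate 4.

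Factors that build the mitochondrial ribosome moved in both directions. Of 26 assembly genes, 2 were higher and 2 lower with JQ1, while 7.16% of all tested genes were higher and 10.4% lower, so the counts lie near the background. MPV17L2, a membrane protein that associates with the large subunit, had 102.5, 82.7, 80.5 and 67.7 CPM in JQ1 libraries, against 34.5, 34.5, 32.7 and 41.0 CPM in H2A DMSO libraries, so its groups were far apart. Its log2 fold change was 1.22 ± 0.15 (edgeR quasi-likelihood, Benjamini-Hochberg adjusted p = 1.6e-05), larger than that of any of the 78 ribosomal protein genes in any comparison. FASTKD2, an RNA-binding protein of large subunit assembly, was at -0.59 ± 0.13 (edgeR Benjamini-Hochberg adjusted p = 0.00408). Both passed in all 17 other settings. The GTPase MTG1 rose by 0.45 ± 0.12 and MTERF4, a partner of the ribosomal RNA methyltransferase NSUN4, was at -0.28 ± 0.10. MTG1 passed in 11 of the 17 other settings and MTERF4 in 5.

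With pinometostat, 5 of the 26 assembly genes were higher and 3 lower, against 3.62% and 4.58% of all tested genes. These counts turned on single libraries: 0 were higher and 0 lower without H2A DMSO replicate 1, and with any other library of the comparison left out 0 to 2 were higher, except 5 without H2A DMSO replicate 4, and 2 or 3 lower. On TPM 0 were higher and 0 lower. The higher ones were MTG1 (0.50 ± 0.12), FASTKD2 (0.43 ± 0.13), the large subunit factor MALSU1 (0.40 ± 0.12), the methyltransferase METTL15 (0.38 ± 0.11) and METTL17 (0.37 ± 0.09), which acts in small subunit assembly. The lower ones were the RNA helicase DHX30 (-0.47 ± 0.10), RCC1L (-0.40 ± 0.09) and ERAL1 (-0.33 ± 0.09), a chaperone of the small subunit RNA. Of the 17 other settings, DHX30 passed in 15, RCC1L in 13, MTG1 and METTL17 in 9, ERAL1 in 8, MALSU1 and METTL15 in 6 and FASTKD2 in 5. The list median was 0.03 with either compound, against 0.04 for all tested genes with JQ1 and 0.03 with pinometostat. FASTKD2 had 20.6, 23.1, 23.8 and 23.7 CPM in JQ1 libraries and 53.0, 41.2, 50.5 and 40.5 CPM in pinometostat libraries, against 29.2, 30.2, 35.1 and 43.0 CPM in H2A DMSO libraries. Its JQ1 libraries lay below all pinometostat and H2A DMSO libraries, while its pinometostat libraries overlapped H2A DMSO replicate 4.

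The lists for translation and for the mitochondrial genome are read against the shares of all tested genes given above (17.6% called with JQ1 and 8.2% with pinometostat). Of 15 translation factors, 0 were higher and 2 lower with JQ1, namely TACO1, an activator of cytochrome oxidase translation (-0.72 ± 0.13), and the release factor MTRF1 (-0.39 ± 0.13). With pinometostat MTRF1 (0.42 ± 0.13) and the recycling factor MRRF (0.35 ± 0.10) were higher and 0 lower; 0 of the 15 were higher in 7 of the 8 fits with a library of the comparison left out, and 1 without H2A DMSO replicate 4. Of 20 mitochondrial tRNA charging enzymes, MARS2 was higher (0.75 ± 0.10) and the amidotransferase subunit QRSL1 lower (-0.68 ± 0.16) with JQ1, and TARS2 was lower with pinometostat (-0.37 ± 0.10). Of 13 genes that copy or transcribe mitochondrial DNA, the polymerase POLG was higher (0.63 ± 0.13) and the elongation factor TEFM (-0.53 ± 0.13) and MTERF1 (-0.57 ± 0.18) lower with JQ1. With pinometostat TEFM was higher (0.49 ± 0.13) and the RNA polymerase POLRMT lower (-0.44 ± 0.12), and without the libraries that stand apart 6 of the 13 were higher and 1 lower. With E92K 0 genes of these lists passed. Of the 17 other settings with JQ1, TACO1, QRSL1 and TEFM passed in all, MARS2 in 16, POLG in 15, MTERF1 in 9 and MTRF1 in 8. With pinometostat TARS2 and TEFM passed in 9, POLRMT in 8, MRRF in 5 and MTRF1 in 4. Without both libraries that stand apart, the assembly list had 3 higher and 3 lower with JQ1 and 7 and 4 with pinometostat. The translation factors then had 1 higher and 4 lower with JQ1 and 3 and 1 with pinometostat, and the charging enzymes 2 and 2 with JQ1 and 0 and 3 with pinometostat. In that fit 10.2% of all tested genes were higher and 13.8% lower with JQ1, and 12.9% and 14.5% with pinometostat.

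Among 10 regulators of mitochondrial genes, 3 were lower with JQ1, the coactivators PPARGC1A (-1.06 ± 0.16) and PPRC1 (-0.43 ± 0.13) and GABPB1 (-0.32 ± 0.11), the partner of the ETS factor GABPA, and MYC was higher (1.53 ± 0.38). Of all tested genes 10.4% were lower and 7.16% higher with JQ1. PPARGC1A passed in all 17 other settings, MYC in 16, PPRC1 in 13 and GABPB1 in 9. PPARGC1A had 2.27 ± 0.170 CPM in JQ1 libraries and 4.71 ± 0.493 CPM in H2A DMSO libraries (SD, n = 4 each). With pinometostat 0 of the 10 passed (edgeR, smallest adjusted p 0.18). Without both libraries that stand apart 2 were lower, against 14.5% of all tested genes. The 13 messenger RNAs that the mitochondrial ribosome translates gave 0 calls in any comparison (edgeR, smallest adjusted p 0.0917 with JQ1), with list medians of 0.42 with E92K, 1.08 with JQ1 and 0.29 with pinometostat. These transcripts are part of the mitochondrial share, which was highest in JQ1 replicate 1 (16.5%) and E92K replicate 4 (7.45%), and the part of those libraries in the medians was not tested. With JQ1, 13 of the 13 were higher with no filter, 9 without JQ1 replicate 3 and 6 without JQ1 replicate 4, and 0 in the other 14 settings. Over all tested genes, 1217 of 37095, 1160 of 17683 and 1456 of 17678 were higher in those 3 fits. In the pinometostat fits with 8 libraries or without those 2 libraries, 8 or 7 of the 13 were higher, against 12.5% or 12.9% of all tested genes.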

How the data were processed

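Per the labels' protocols, a service company extracted the RNA and built the libraries. No aligner, counter, annotation or strand setting is given in the sources used here. Raw gene counts were deposited per library and again for the series (920000 of 920000 cells were equal), together with TPM. The deposited TPM can be rebuilt from the counts and the exonic lengths in the files within 5e-05. Gene positions are those in the files, where 77 of the 78 genes match GENCODE release 29 (GRCh38). Replicate pairs differed by a chi-square of at least 3.77 per degree of freedom, and all 16 libraries were kept as separate samples. The labels' treatment text gives pinometostat in mM where the sample field gives 2.5 µM, and the sample field was used.

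Counts were filtered with filterByExpr (minimum count 10, minimum total 15), which left 17306 genes, scaled by TMM and fitted with edgeR 4.0.16 (R 4.3.3), quasi-likelihood, with a mean per group over all 16 libraries, 12 residual and 5.83 prior degrees of freedom. Tests were two-sided, adjusted by Benjamini-Hochberg over the whole table, at a threshold of 0.05. The SE is the fold change divided by the root of F, and 95% intervals use a t quantile of 2.1. The script was tested on simulated data. The genes, the lists and the rule for named genes were chosen with earlier results of these data known. The rule took genes past the threshold (up to 10 per direction), the 3 highest and 3 lowest levels, MRPS18A to C, MRPS30, MRPS36, MRPL58, MRPL12, the 5 subunits of other names, and up to 4 genes per list. Other genes named in the text were chosen after their values were seen. Alternatives were DESeq2 1.42.0 and its size factors, library size alone, no filter, at least 50 counts in 4 libraries, 8 libraries alone, a replicate block, limma 3.58.1 on log2(TPM + 1), both libraries that stand apart left out, and each library left out; the coding transcript length was added after seeing the data. Motifs were read from RefSeq promoter windows (GRCh38.p14; the first of several for 11 genes), and 9 genes without a window are not analysed here. The mitochondrial ribosomal RNAs are not analysed here. Figures were drawn with matplotlib 3.10.9.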

Additional observations from a re-analysis of the deposited data

Results flagged for a closer look

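In 88 groups of 4 libraries (18 genes and the sums of each subunit), 8 had a library far from the other 3 by Dixon's test, where chance gives about 1 in 20. The 88 groups reuse the same 16 libraries and the genes deviate together, so they are not independent tests. In JQ1 replicate 1, MRPL41 stood at 444 CPM against 144 to 194 in the other JQ1 libraries, MRPL12 at 206 against 74.4 to 84.8, MRPS18C at 59.9 against 30.7 to 31.1, and MRPS36 at 54.8 against 29.8 to 31.1. Genes outside the 18 were not screened, and some also stood apart in JQ1 replicate 1, in either direction. Examples are MRPL22 at 262 CPM against 105 to 112 and MRPL45 at 53.0 CPM against 93.1 to 95.4. JQ1 replicate 1 also had the lowest summed TPM of the small subunit, 2121 against 2865 to 3013. In E92K replicate 4, MRPL12 stood at 142 CPM against 75.6 to 84.3. The summed CPM of the large subunit was 5385 in pinometostat replicate 3, against 4714 to 4823 in the other pinometostat libraries. MRPL53 was lowest in H2A DMSO replicate 4, at 5.90 CPM against 7.43 to 7.71.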

How the results depend on the processing

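The counts of the 78 genes called with E92K were 0 in all 17 settings, and the medians of the 78 genes kept their sign with E92K and pinometostat in all 17 settings (0.06 to 0.23 and 0.11 to 0.26 with a library left out). With pinometostat the median was 0.049 on TPM. With JQ1 the median was -0.10 when scaled by library size alone, -0.21 on TPM, and ran from -0.05 to 0.14 with a library left out. The number higher with JQ1, 1, was 0 with 8 libraries, library size alone, TPM, the stricter filter and the replicate block, 3 with no filter and 2 without both libraries that stand apart, and 0 to 2 with a library left out. Of all tested genes, 3.08% were higher with 8 libraries, 2.5% with library size alone, 1.21% on TPM, 4.84% with the replicate block and 10.2% without both libraries. They numbered 914 of 13559 with the stricter filter and 1217 of 37095 with no filter. The number lower with JQ1, 3, was 1 with 8 libraries, 10 with library size alone, 6 on TPM, 0 with the replicate block, 5 without both libraries, and 0 to 4 with a library left out. In the first 5 of these settings, in that order, 8.34%, 15.1%, 12.6%, 8.81% and 13.8% of all tested genes were lower. The 10 and 6 genes are 12.8% and 7.69% of the 78, below those shares. The number higher with pinometostat, 3, was 16 with 8 libraries, 6 with DESeq2, 0 on TPM, 1 with no filter, 1 with the replicate block, 17 without both libraries, and 0 to 8 with a library left out. Of all tested genes, 12.5% were higher with 8 libraries, 0.399% on TPM, 1.29% with the replicate block and 12.9% without both libraries. They numbered 868 of 17306 with DESeq2 and 503 of 37095 with no filter. The number lower with pinometostat, 2, was 4 with 8 libraries, 0 on TPM, 0 with no filter, 1 with the replicate block, 4 without both libraries, and 1 with any library left out. Of all tested genes, 15.1% were lower with 8 libraries, 2.24% on TPM, 1.79% with the replicate block and 14.5% without both libraries. With no filter 555 of 37095 were lower. The cause of these differences was not tested.

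Over all genes, pinometostat called 1419, against 4610 with 8 libraries, 4782 without both libraries, 2348 with DESeq2, 457 on TPM and 534 with the replicate block; JQ1 called 3044, against 1872 with 8 libraries. Of the calls with JQ1, 40.7% were higher, against 14.3% with library size alone and 8.77% on TPM. Deviations of same-numbered samples had correlations of -0.21 to 0.15, and those of different-numbered samples ran from -0.28 to 0.28. These values cannot show whether samples were paired or handled together, and the main fit did not pair them.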
